A study of Mus musculus with 4 samples.

Results

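D-type cyclins, their kinases CDK4 and CDK6, and the inhibitors of these kinases were measured by RNA-seq in cultured mouse chondrocytes, which make cartilage matrix. The genes are 10 of the 25239 symbols in the count table, taken by symbol: Ccnd1, Ccnd2 and Ccnd3, Cdk4 and Cdk6, Cdkn1a, Cdkn1b and Cdkn1c, and Cdkn2a and Cdkn2b. All 10 passed the filter on low counts, and their lowest count in any library was 818. The 2 cKO libraries came from Tiki2 fl/fl mice that also carry an inducible Cre driven by Col2a1 (written Col2a1-Cre/ERT or Col2a-CreERT2 in the labels), and the 2 control libraries from Tiki2 fl/fl mice without it. Every culture received 4-hydroxytamoxifen, which switches this Cre on, so floxed alleles and drug are shared and the Cre is not. The Cre acts where the Col2a1 promoter is active, so cells of a culture that do not use it keep Tiki2. Age, sex and the number of animals per library are not stated in the labels. Nothing there says whether the replicates are separate animals or cultures, so the p-values cover the spread between these libraries, part of which may be technical.

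As background, a cell commits to divide in late G1, when D cyclins, made in answer to growth signals, bind CDK4 or CDK6 and begin to phosphorylate the retinoblastoma protein RB. RB then releases E2F transcription factors, which switch on cyclin E, cyclin A and the genes of DNA synthesis. Inhibitors of the INK4 family (from Cdkn2a and Cdkn2b here) bind CDK4 and CDK6 and keep D cyclins off, whereas those of the CIP/KIP family (from Cdkn1a, Cdkn1b and Cdkn1c) bind assembled cyclin-CDK complexes and block CDK2 above all. In growth plate cartilage, proliferating chondrocytes use cyclin D1, and cells that leave the cycle to become hypertrophic make the CIP/KIP protein p57, the product of Cdkn1c. Only RNA was measured here, so protein levels and kinase activity are not covered.

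RefSeq promoters on GRCm38.p6, running from 250 bases before to 50 bases after each start, matched 7 of the 10 genes with 10 starts; Ccnd1, Ccnd2 and Cdkn1c had no entry. The 3 promoters shown were picked because each holds a match to the motif of a factor known to regulate that gene. Capitals mark the E-box CACGTG, which the MYC protein binds, in Cdk4 (chr10:127063285-127063584, plus strand). In Cdkn1a (chr17:29090729-29091028, plus strand, the upstream of 2 starts) they mark a match to the p53 consensus with at most 1 mismatch. In Cdkn2a (chr4:89294570-89294869, minus strand, the start of the Arf transcript) they mark the E2F motif TTTCCCGC.
Cdk4: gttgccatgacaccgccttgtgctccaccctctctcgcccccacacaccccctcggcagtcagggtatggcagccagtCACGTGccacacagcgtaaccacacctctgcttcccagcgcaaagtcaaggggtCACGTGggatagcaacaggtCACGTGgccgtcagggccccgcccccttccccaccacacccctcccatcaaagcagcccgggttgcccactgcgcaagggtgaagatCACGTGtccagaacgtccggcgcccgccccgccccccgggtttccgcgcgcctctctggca
Cdkn1a: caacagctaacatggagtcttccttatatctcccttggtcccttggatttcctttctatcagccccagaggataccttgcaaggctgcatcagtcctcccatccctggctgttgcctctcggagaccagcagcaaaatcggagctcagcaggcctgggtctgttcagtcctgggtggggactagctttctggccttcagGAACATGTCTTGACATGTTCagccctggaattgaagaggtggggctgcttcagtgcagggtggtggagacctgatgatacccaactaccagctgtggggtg
Cdkn2a: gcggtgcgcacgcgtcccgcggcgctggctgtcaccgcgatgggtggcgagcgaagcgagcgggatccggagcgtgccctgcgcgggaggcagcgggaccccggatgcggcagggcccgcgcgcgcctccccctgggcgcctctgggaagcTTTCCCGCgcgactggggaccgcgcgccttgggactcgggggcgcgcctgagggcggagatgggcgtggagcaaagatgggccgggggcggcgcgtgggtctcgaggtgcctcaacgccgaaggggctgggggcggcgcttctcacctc

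The Cdk4 window holds 4 E-boxes, and 0.0246% of 32544 promoters of this length hold 4 or more, while 7.17% hold at least 1. The cut of 4 was taken from the Cdk4 count itself. Cdk6 also holds 1 E-box, 220 bases before its start. The p53 match in Cdkn1a begins 51 bases before the start, and 0.0891% of promoters hold such a match. The E2F motif in Cdkn2a begins 99 bases before the start and occurs, on either strand, in 1.08% of promoters. The TCF motif ATCAAAG, which the partners of β-catenin bind, was also searched on both strands, and Cdk4 holds 1 copy, 52 bases before its start, as do 3.73% of all promoters. A match of letters is a description and does not show that a factor binds there.

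**Figure D1:**
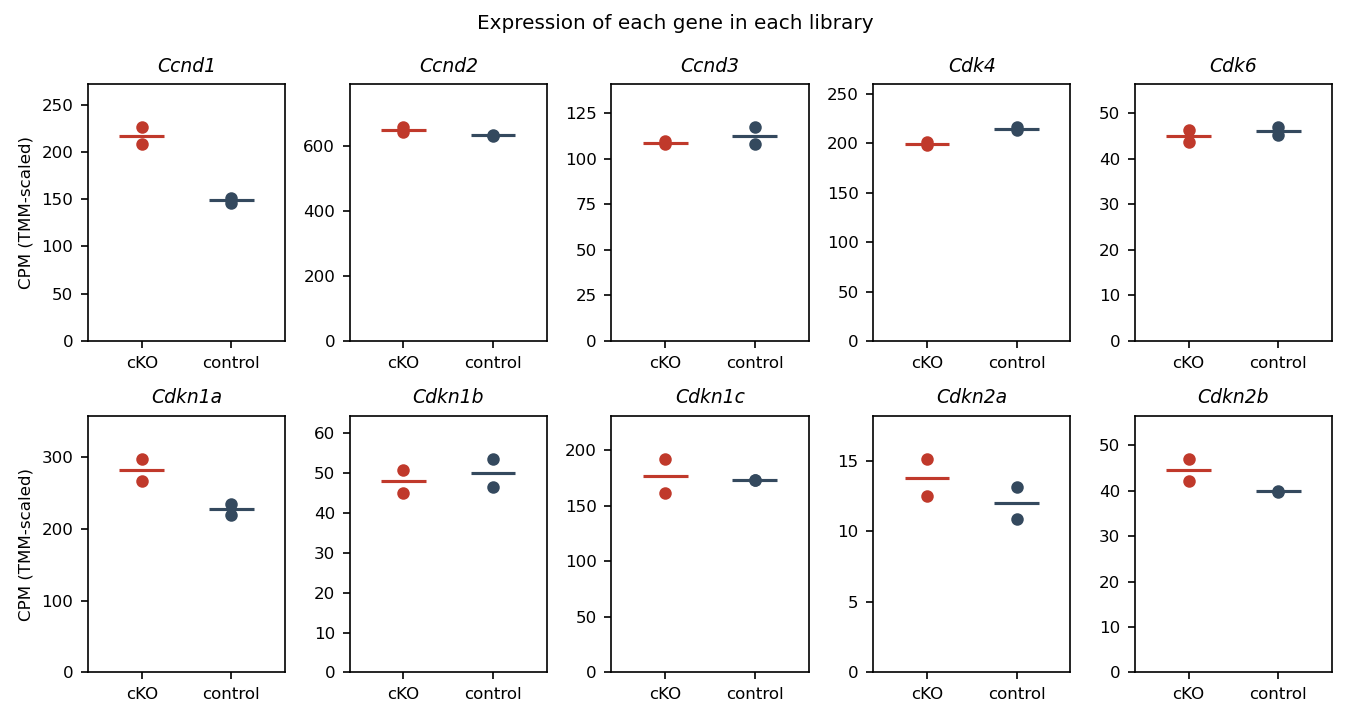
Expression of the 10 genes in TMM-scaled CPM (y axes start at 0 and differ between panels). Each point is 1 library, red for cKO and dark blue for control, and each bar is the mean of 2 libraries. Ccnd1 lies at 208 and 226 CPM in cKO, above both control libraries, and most other panels show groups at similar heights.

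Cyclin D1 was the member whose RNA passed the edgeR threshold. Ccnd1 (ENSMUSG00000070348.5, protein-coding, mm10 chromosome 7, 144929931 to 144939925, minus strand), the growth-signal sensor of the family, had 17532 and 16909 counts in cKO libraries 1 and 2, against 9574 and 11426 in control libraries 1 and 2. Scaled to library size by TMM, that is 226 and 208 CPM (counts scaled to the library total) in cKO, against 146 and 152 CPM in controls. Both cKO libraries were above both controls, and the gap between the groups was several times the gap within either. The mean was 217 ± 12.7 CPM in cKO and 149 ± 3.64 CPM in controls (SD, n = 2 each), a rise of 0.54 ± 0.06 on the log2 scale (SE), or 1.46-fold (95% interval 1.31 to 1.62). The adjusted p over all 15522 genes tested was 0.0289 (edgeR quasi-likelihood test, Benjamini-Hochberg). In bulk RNA, a change in the number of cells of a type and a change in RNA per cell cannot be told apart.

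One of the 10 genes was thus called, against 1.3% of all genes tested, 0.393% being called higher and 0.908% lower. No member was called lower. DESeq2 called 2 of the 10, Ccnd1 and Cdkn1a, against 7.95% of the 13823 genes to which it gave an adjusted p. Limma-voom called 1, Ccnd1, against 2.15% of genes. Before adjustment, 2 of the 10 had an edgeR p under 0.05, against 17.2% of all genes. The groups did not overlap for 5 of the 10, against 49.8% of all genes tested, so separation of 2 against 2 libraries is by itself no result about these genes. The absolute log2 fold change had a median of 0.08 over the 10 genes and 0.15 over all genes tested.

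The call for Ccnd1 was lost when either control library was left out. Without control replicate 1 its edgeR adjusted p was 0.141 at a log2 fold change of 0.52, and without control replicate 2 it was 0.163 at 0.57. Without cKO replicate 1 or 2 the gene stayed called, at 0.0109 and 0.0127. Control replicate 1 also stands apart in sex, with 112185 counts of the X-inactivation RNA Xist, against 36 to 171 in the other 3 libraries, and 0 counts of the Y-linked Ddx3y, against 11073 to 12085.

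Ccnd1 shares 1100 bases of merged exon with LTO1, a gene on the opposite strand, and the sources used here do not give the strand setting of the counting, so reads in that stretch may be credited to either gene. LTO1 had 20.7 and 20.5 CPM in cKO and 20.3 and 15.4 CPM in controls, far below Ccnd1. For LTO1 the log2 fold change came to 0.20 ± 0.14, with an edgeR adjusted p of 0.52. The nearest tested genes that do not overlap Ccnd1 were Ano1, a chloride channel gene 177957 bases away, at 0.89 ± 0.30 (edgeR adjusted p = 0.20), and Tpcn2, an endolysosomal channel gene 246599 bases away, at 0.14 ± 0.08 (0.43). Over all 10 members the nearest tested genes on each side came to 18 that are no members. Of these, 0 were called by edgeR, DESeq2 or limma-voom, and 2 had an unadjusted edgeR p under 0.05, Ano1 and Med20, against 17.2% of all genes.

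The genes whose pattern over the 4 libraries was most like that of Ccnd1 were Wnt11, Dysf and Cd80. Likeness is the root mean square difference of log2 CPM, centred on the mean of each gene, which was 0.012 for Wnt11, 0.015 for Dysf and 0.028 for Cd80 among 12153 genes compared. Wnt11 stood at 3.12 and 2.92 CPM in cKO and 2.02 and 2.07 CPM in controls. With 4 libraries this is a description only, and none of the 3 genes passed the test (edgeR adjusted p = 0.33, 0.0765 and 0.0501).

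Ccnd2, which encodes cyclin D2 (chromosome 6, 127125162 to 127152193), did not pass. It had 659 and 643 CPM in cKO, against 635 and 632 CPM in controls. The cKO values were the higher ones by a small margin, at 0.04 ± 0.05 on the log2 scale (edgeR adjusted p = 0.77), and the 95% interval in folds ran from 0.939 to 1.12. Ccnd3, which encodes cyclin D3 (chromosome 17, 47505051 to 47599691), had 109.8 and 107.8 CPM in cKO, against 107.9 and 117 CPM in controls. The groups overlapped, and the interval ran from 0.87-fold to 1.07-fold (edgeR adjusted p = 0.76). Both intervals end below the lower end of the Ccnd1 interval.

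The make-up of the D cyclin transcripts differed accordingly. Per kilobase of merged exon, cyclin D1 made up 36.8% and 35.4% of the D cyclin total in cKO, against 28.1% and 28.5% in controls. Cyclin D2 took 53.6% and 54.8% in cKO and 60.9% and 59.6% in controls, and so remained the most abundant of the 3 in every library. Cyclin D3 took 9.58% and 9.84% in cKO and 11.1% and 11.9% in controls. These shares do not depend on how libraries are scaled. The log2 ratio of Ccnd1 to Ccnd2 counts was -1.54 and -1.63 in cKO, against -2.12 and -2.06 in controls, a difference of 0.50. The log2 ratio of Ccnd1 to Ccnd3 counts was 1.04 and 0.95 in cKO, against 0.44 and 0.37 in controls, a difference of 0.59. For these ratios the exact two-sided permutation test gave p = 0.333, the smallest that 2 against 2 libraries allow. Of 9 ratios between members that were computed, 7 reached that smallest p (Benjamini-Hochberg adjusted 0.429) and 2 did not. Reaching it means only that the groups do not overlap, as was the case for 49.8% of single genes tested. Most of the 7 hold Ccnd1 or Cdkn1a, so they are not separate observations.

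**Figure D2:**
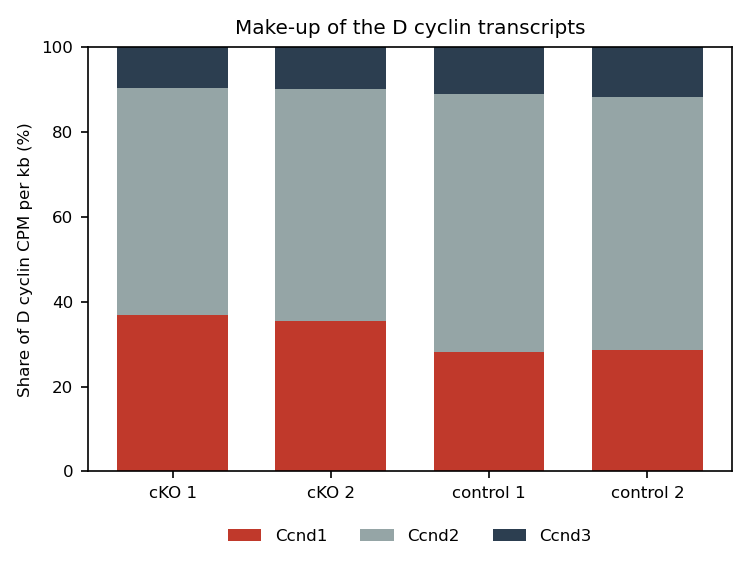
Share of each D cyclin in the summed D cyclin CPM per kilobase (y axis, percent) in each library, cKO on the left and control on the right. The red part, Ccnd1, is 36.8% and 35.4% in the cKO libraries and 28.1% and 28.5% in the controls.

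The kinases that D cyclins activate did not change past the threshold. Cdk4 (chromosome 10, 127063534 to 127067920) had 198 and 202 CPM in cKO, against 213 and 216 CPM in controls. Both cKO values were below both controls, at -0.10 ± 0.05 on the log2 scale (edgeR adjusted p = 0.39), with a 95% interval of 0.85-fold to 1.02-fold. Cdk4 ends inside Tspan31, a tetraspanin gene on the opposite strand with which it shares 641 exon bases. Tspan31 had 100.5 and 101 CPM in cKO and 93.7 and 93.2 CPM in controls, the other way round, at 0.11 ± 0.05 on the log2 scale (edgeR adjusted p = 0.37), and how reads in the overlap were divided was not tested. Myc, whose protein binds the E-box shown above, was looked up for that reason after its value had been seen. It had 27.1 and 25.7 CPM in cKO and 30.1 and 31.5 CPM in controls (log2 fold change -0.22 ± 0.08, edgeR adjusted p = 0.25).

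Cdk6 (chromosome 5, 3341485 to 3531008) encodes the second kinase of the pair. It had 46.3 and 43.7 CPM in cKO, against 45.2 and 46.9 CPM in controls, with overlapping groups and a log2 fold change of -0.03 ± 0.07, which had an edgeR adjusted p of 0.86. The log2 ratio of Ccnd1 to Cdk4 counts was 0.19 and 0.05 in cKO and -0.54 and -0.51 in controls. The ratio was thus higher in both cKO libraries, by 0.65 between the group means.

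**Figure D3:**
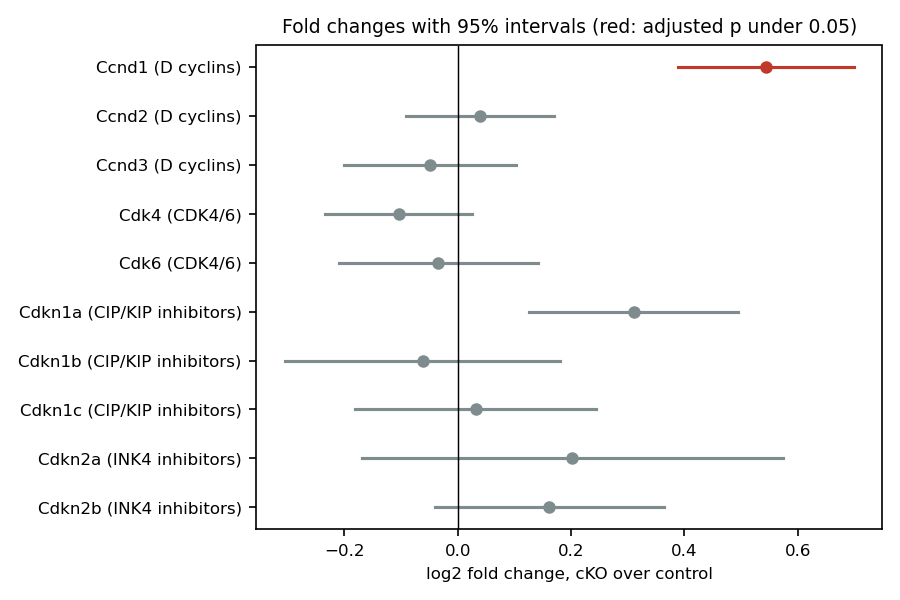
Log2 fold change of cKO over control (x axis) for the 10 genes, grouped by role from top to bottom; lines are 95% intervals from edgeR. Ccnd1, in red, is the gene past the adjusted threshold, and the interval of Cdkn1a (0.13 to 0.49) also lies above 0 although it does not pass after adjustment.

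Among the CIP/KIP inhibitors, Cdkn1a came nearest to the threshold. Cdkn1a (ENSMUSG00000023067.14, chromosome 17, 29090976 to 29100727) encodes p21, the inhibitor induced by p53. Its counts were 23069 and 21612 in cKO, against 14360 and 17703 in controls, or 297 and 266 CPM in cKO, against 220 and 235 CPM in controls. Both cKO libraries were above both controls, with means of 282 ± 22.3 CPM in cKO and 227 ± 10.8 CPM in controls (SD, n = 2 each). The log2 fold change was 0.31 ± 0.08, 1.24-fold with a 95% interval of 1.09 to 1.41, and the edgeR adjusted p was 0.115 (unadjusted p = 0.0060). DESeq2 gave an adjusted p of 0.00379, and limma-voom 0.0886.

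The count of Cdkn1a covers both of its annotated starts, so the upstream start with the p53 match shown above could not be read apart from the downstream one. Trp53, which encodes p53, was looked up beside it after its value had been seen. It had 87.8 and 73.4 CPM in cKO and 80.4 and 86.5 CPM in controls (log2 fold change -0.05 ± 0.10, edgeR adjusted p = 0.85). Trp53cor1, a long non-coding RNA and the nearest tested gene on the low-coordinate side of Cdkn1a, was at -0.16 ± 0.18 (edgeR adjusted p = 0.72).

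Cdkn1b (chromosome 6, 134920401 to 134925513) encodes p27, which restrains CDK2 in resting cells. It had 50.8 and 45.0 CPM in cKO, against 46.4 and 53.6 CPM in controls. The groups overlapped, at -0.06 ± 0.10 on the log2 scale (edgeR adjusted p = 0.81). Cdkn1c (chromosome 7, 143458339 to 143461050), an imprinted gene expressed from the maternal allele, had 162 and 193 CPM in cKO, against 173.5 and 173.4 CPM in controls. The controls lay between the 2 cKO libraries, which differed from each other by 17.2% of their mean, against 0.0553% for the controls. The fold change of 0.03 ± 0.09 on the log2 scale (edgeR adjusted p = 0.90) became 0.15 without cKO replicate 1 and -0.10 without cKO replicate 2.

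Within the family, the log2 ratio of Cdkn1a to Cdkn1b counts was 2.55 and 2.56 in cKO, against 2.24 and 2.13 in controls. The ratio of Cdkn1a to Cdkn1c counts was 0.88 and 0.47 in cKO and 0.34 and 0.44 in controls, so that cKO replicate 2 lay close to the controls. The log2 ratio of Ccnd1 to Cdkn1a counts was -0.40 and -0.35 in cKO, against -0.58 and -0.63 in controls, a difference of 0.23. Each of these 3 ratios gave the exact permutation p of 0.333.

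The INK4 genes lie side by side on chromosome 4, with 11645 bases between them. Cdkn2a (89274471 to 89294653) encodes p16 and, from its own first exon and in another reading frame, the p53 activator ARF, and the deposited row sums both. It was the lowest member in CPM, with 15.1 and 12.5 CPM in cKO, against 13.2 and 10.8 CPM in controls. The groups overlapped, the replicates of each group differed by 19.3% of their mean, and the log2 fold change was 0.20 ± 0.15 (edgeR adjusted p = 0.57). Cdkn2b (89306299 to 89311039) encodes p15, an inhibitor that TGF-beta induces in epithelial cells. It had 47.1 and 42.1 CPM in cKO, against 39.9 and 39.8 CPM in controls. Both cKO values were above both controls, at 0.16 ± 0.08 on the log2 scale (edgeR adjusted p = 0.39), and the interval ran from 0.972-fold to 1.29-fold. The log2 ratio of Cdkn2a to Cdkn2b counts overlapped between the groups, at -1.64 and -1.76 in cKO and -1.60 and -1.88 in controls (exact permutation p = 1.0).

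Levels of different genes were compared as CPM per kilobase of merged exon, which counts every annotated exon and so understates genes with long unused exons. In cKO, Cdkn1c stood highest at 86.9 ± 10.6 CPM per kilobase (SD, n = 2), with values overlapping those of Cdkn1a (79.3 ± 6.28). Ccnd2 (69.2 ± 1.17), Cdk4 (61.5 ± 0.724), Ccnd1 (46.1 ± 2.70) and Cdkn2b (32.1 ± 2.51) followed, each apart from its neighbours. In controls the order was Cdkn1c (85.1 ± 0.0333), Ccnd2 (67.3 ± 0.168), Cdk4 (66.1 ± 0.674) and Cdkn1a (63.9 ± 3.03), the last pair overlapping, and then Ccnd1 (31.6 ± 0.772) and Cdkn2b (28.7 ± 0.0419). Cdkn1a thus stood in place 2 in cKO and place 4 in controls. Ccnd3, Cdkn2a and Cdkn1b came next, at 10.2 to 12.8 CPM per kilobase in group means. In cKO the values of Cdkn2a overlapped those of Ccnd3 and those of Cdkn1b, and in controls Cdkn1b and Cdkn2a overlapped. Cdk6 was lowest at 3.22 ± 0.128 in cKO and 3.29 ± 0.0842 in controls, and Cdk4 was the main D cyclin kinase transcript in every library.

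Summed over the members of each family, D cyclins reached 130.5 and 125 CPM per kilobase in cKO, against 111 and 113 in controls. CIP/KIP inhibitors reached 174 and 179 in cKO, against 157 and 163 in controls. INK4 inhibitors reached 46.8 and 41.0 in cKO and 39.9 and 37.9 in controls. CDK4 and CDK6 together reached 64.3 and 65.2 in cKO, against 68.9 and 70.0 in controls. Within these descriptive sums over members, cyclins and both inhibitor groups were higher in cKO and the kinases lower, without overlap. This held with TMM scaling and with library totals alone, where the nearest kinase values were 67.13 in cKO and 67.49 in control. Among single genes tested, 49.8% separated in this way, so the separation is by itself no result about a family. Each sum held members whose own groups overlapped: Ccnd3, Cdk6, Cdkn1b, Cdkn1c and Cdkn2a. The INK4 sum leaves out Cdkn2c and Cdkn2d, whose means were lower in cKO (47.75 against 50.14 and 11.41 against 14.14 CPM, the latter with overlap). Ccnd1 is the member of these sums that passed the edgeR threshold.

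None of the other genes surveyed passed the edgeR threshold. They are 76 genes in 9 lists, called other cell cycle genes here. The lists include 20 regulators of member transcription and 8 genes that control turnover of cyclin D and p27. Of the 76 genes, 75 were tested, and 0 were called by edgeR or limma-voom. Before adjustment, 15 had an edgeR p under 0.05, against 17.2% of all genes. DESeq2 called 3, Tfdp2 higher and Ets1 and Pcna lower, against 7.95% of all genes. Neither count is thus a result about these genes. Among the 2 other INK4 genes, Cdkn2d had 11.04 and 11.8 CPM in cKO and 11.3 and 17.0 CPM in controls (log2 fold change -0.31 ± 0.20), and Cdkn2c was at -0.07 ± 0.07. Of the 3 RB family genes, Rbl2, which encodes the RB relative p130 of resting cells, was at 0.15 ± 0.07 and Rbl1, which encodes p107, at -0.17 ± 0.11. The lowest p-values among the 10 E2F and DP genes were those of Tfdp2, an E2F dimer partner, and E2f1, an activating E2F. Tfdp2 had 55.9 and 67.7 CPM in cKO and 48.3 and 45.7 CPM in controls (0.39 ± 0.10, edgeR adjusted p = 0.13). E2f1 had 27.6 and 25.6 CPM in cKO and 32.5 and 31.9 CPM in controls (-0.28 ± 0.09, edgeR adjusted p = 0.18).

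Of the 5 tested genes of cyclin E, cyclin A and CDK2, Ccna2, the S phase cyclin, had 35.5 and 38.1 CPM in cKO and 43.3 and 47.4 CPM in controls (log2 fold change -0.30 ± 0.09, edgeR adjusted p = 0.15). Ccne1, which encodes cyclin E1, was at -0.21 ± 0.10 (edgeR adjusted p = 0.36). In the CDK-activating kinase, Cdk7 was at 0.08 ± 0.06 and its cyclin Ccnh at -0.07 ± 0.11. Among 8 genes that control turnover of cyclin D and p27, Fbxo31, which directs cyclin D1 to breakdown in human cells, was at 0.20 ± 0.08 (edgeR adjusted p = 0.28). Cks1b, which helps SKP2 mark p27 for breakdown, was at -0.17 ± 0.09. In the DREAM list, named for the complex that represses cell cycle genes, Mybl2 was at -0.34 ± 0.19 and Lin54 at -0.16 ± 0.10. Of 20 regulators of these genes, the transcription factor Ets1 was at -0.44 ± 0.11 (edgeR adjusted p = 0.11) and the TGF-beta effector Smad3 at 0.21 ± 0.06 (edgeR adjusted p = 0.15).

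All 18 genes of S phase and mitosis had log2 fold changes below 0, against 49.6% of all genes tested, with a median of -0.21 over the list, against 0.00 over all genes. When libraries were scaled by their totals alone, 17 of the 18 were below 0, against 37.4% of genes. None was called by edgeR or limma-voom and 1 by DESeq2, Pcna. There were 6 with an unadjusted edgeR p under 0.05, each lower in cKO, against 8.88% of all genes for that direction. Pcna, the clamp that holds DNA polymerase, had 75.3 and 81.9 CPM in cKO and 94.4 and 95.5 CPM in controls (-0.27 ± 0.06, edgeR adjusted p = 0.11). Mcm3, a subunit of the replicative helicase, was at -0.32 ± 0.09 (0.15). The groups did not overlap for 9 of the 18, each lower in cKO, and overlapped for the others. Over all genes tested, 49.8% separated in either direction. Mki67 was among the genes that overlapped, with 141 and 160 CPM in cKO and 155 and 193 CPM in controls. All 18 genes were read in the same 4 libraries, so the shared sign is not 18 separate observations.

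**Figure D4:**
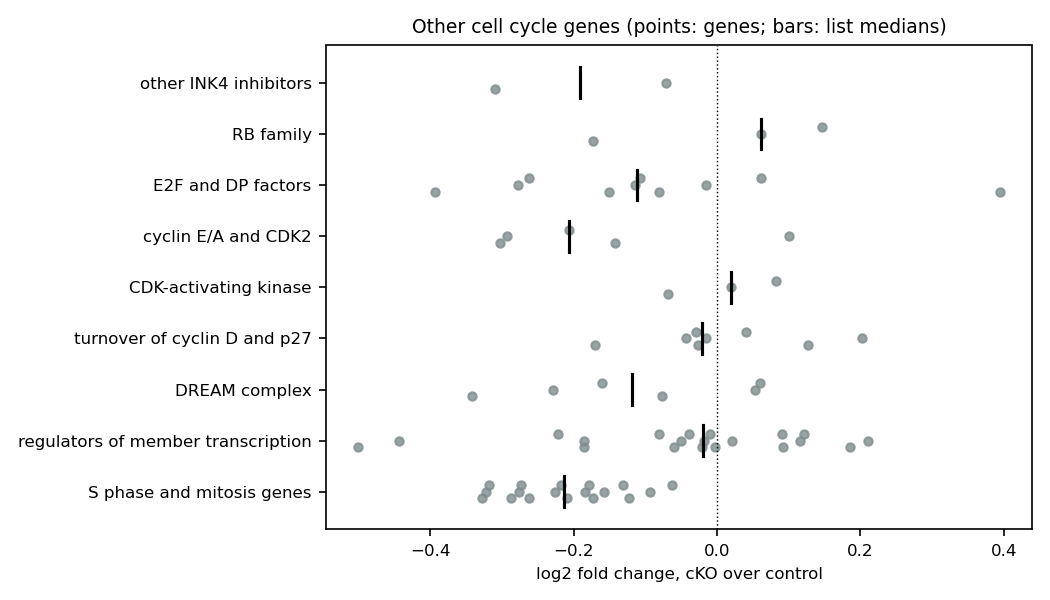
Log2 fold change of cKO over control (x axis) for 75 tested cell cycle genes other than the 10, by list. Points are genes and vertical bars are list medians. All 18 points of the S phase and mitosis list lie left of 0, and no point in the plot passed the adjusted threshold.

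Marker genes put these values in context. Total counts ran from 66750140 to 78873054 per library. Trabd2b, the gene of Tiki2, had 22643 and 29473 counts in cKO, against 28513 and 31314 in controls (log2 fold change -0.38 ± 0.11, edgeR adjusted p = 0.15), so its RNA remained present; the row covers the whole gene and not the floxed part alone. The 8 chondrocyte markers were present in all libraries, with sums of 8668 to 11913 CPM in cKO and 20875 to 24681 CPM in controls (scaled by library size alone), and 7 were called lower by edgeR. The 8 fibroblast markers summed to 8157 to 8790 CPM in cKO and 6426 to 6738 CPM in controls. Of these 8, 7 were higher and 1 was lower in cKO without overlap, and 2 were called higher. The 8 adipocyte markers summed to 335 to 545 CPM in cKO and 220 to 221 CPM in controls, with 6 higher in cKO without overlap and 0 called. Macrophage markers summed to 21.2 to 22.4 CPM in cKO and 18.0 to 24.8 CPM in controls, with Adgre1 and Ptprc at 0 in 3 libraries each. Endothelial markers summed to 4.01 to 4.29 CPM in cKO and 2.76 to 4.06 CPM in controls, with Emcn at 0 throughout. Muscle markers summed to 11.6 to 47.8 CPM in cKO and 4.67 to 27.2 CPM in controls. Osteoclast markers summed to 393 to 431 CPM in cKO and 460 to 470 CPM in controls, with Dcstamp at 0 throughout. Of the 6 osteoclast markers, 3 were at 0 in some library and 4 were tested. Of the 6, 1 was lower in cKO without overlap and 0 were called, so this sum does not by itself show osteoclasts. The chondrocyte, fibroblast, adipocyte and osteoclast sums differed between genotypes without overlap, and the macrophage, endothelial and muscle sums overlapped. Of the members, Ccnd1, Ccnd2, Cdk4, Cdkn1a and Cdkn2b also separated. Single genes separated in 49.8% of all those tested, so separation alone is no result about a sum or a member. The part of these cell types in the Ccnd1 and Cdkn1a values was not tested.

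**Figure D5:**
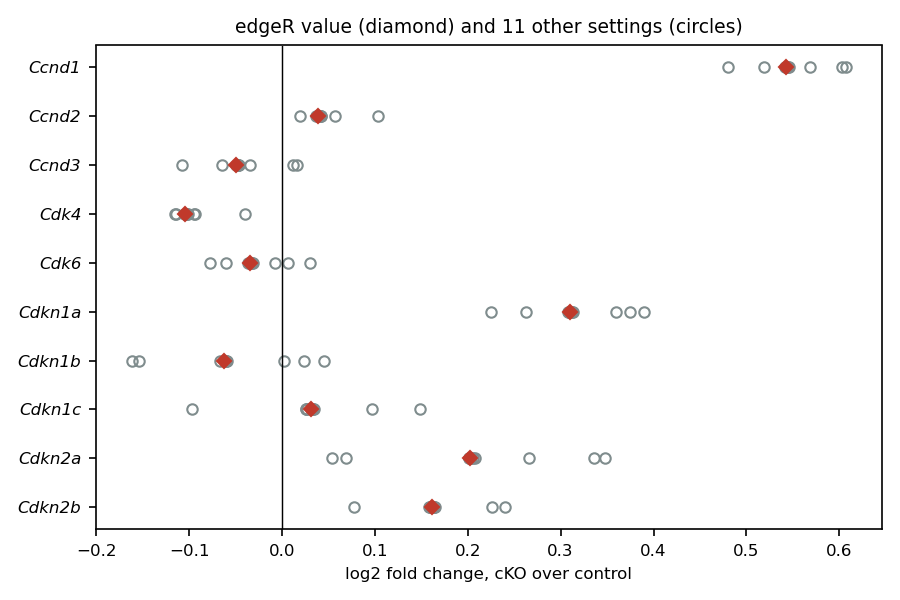
Log2 fold change of cKO over control (x axis) of each gene in the main edgeR fit (red diamond) and under 11 other settings (open circles): other scalings, filters, tests, replicate blocks and each library left out. Ccnd1 stays between 0.48 and 0.61 and Cdkn1a between 0.23 and 0.39, while Ccnd3, Cdk6, Cdkn1b and Cdkn1c have values on both sides of 0.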

How the data were processed

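Poly(A) RNA of 2 cKO and 2 control cultures was sequenced; the sample titles give genotype and replicate number. The authors deposited raw counts per gene symbol in 1 table. HISAT2 2.2.1, StringTie 2.1.7, Trim Galore 0.6.7, FastQC 0.11.9 and build mm10 are listed, without role or order, per the submitters' processing notes. Neither the counting tool nor its strand setting or annotation is given in the sources used here. The library protocol in the labels mentions no molecular identifiers, so PCR copies may be counted.

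The filterByExpr function (minimum count 10) left 15522 of 25239 genes, of which 6758 were at 0 in all libraries. Counts were scaled by TMM and tested for genotype with no covariate by the quasi-likelihood test of edgeR 4.0.16 (R 4.3.3), and p-values were adjusted over all these genes by Benjamini-Hochberg, with a threshold of 0.05. Each standard error is the size of the log2 fold change divided by the root of F; 95% intervals use the t distribution. The biological coefficient of variation was 0.174. DESeq2 1.42.0 and limma-voom (limma 3.58.1), other scalings, no filter, replicate blocks and each library left out were alternatives. CPM values use TMM-scaled library sizes except for marker sums. Positions, merged exon lengths and overlaps come from GENCODE M21 on mm10, which holds 96.5% of the symbols.

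The members, the 9 other lists, the 7 marker lists and the tests were chosen with earlier results of these data known. The text names every member, the genes past the threshold in each other list or else its 2 lowest p-values, Trabd2b, Xist, Ddx3y and the 3 genes most like Ccnd1; overlapping and neighbouring genes, Myc and Trp53 were added after seeing the data.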

Additional observations from a re-analysis of the deposited data

How the results depend on the processing

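The 10 fold changes were recomputed under 11 other settings each. Of the 110 values, 97 kept direction and side of the threshold, 3 lost the call (all Ccnd1), 2 gained one (both Cdkn1a) and 8 changed sign, all of genes that were not called. With library sizes alone the log2 fold change was 0.0159 for Ccnd3, 0.0305 for Cdk6 and 0.0024 for Cdkn1b; the median of all genes was then 0.07. Leaving out 1 library at a time gave -0.107 to 0.0123 for Ccnd3, -0.0771 to 0.007 for Cdk6, -0.162 to 0.0458 for Cdkn1b and -0.10 to 0.15 for Cdkn1c. The causes were not tested.

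Genes called numbered 202. DESeq2 called 1099 (2 members, 3 of the other cell cycle genes) and limma-voom 333. Leaving out 1 library gave 5 to 782 genes, 0 to 1 members and 0 to 2 other cell cycle genes, the 2 being Ets1 and Tfdp2 without cKO replicate 1; without control replicate 1 it was 5 genes and without control replicate 2 it was 19. With the replicate number as a block, 23 genes and 0 members were called, and the Ccnd1 adjusted p was 0.0689 (edgeR). Same-numbered libraries deviated from their group means with a correlation of -0.122, so the numbers are not shown to pair the samples. With crossed numbers, added after seeing the data, 564 genes and 2 members were called.

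The cyclin D1 share was 7.79 percentage points higher in cKO per kilobase, and 5.57 points higher when counts were not divided by length; leaving out 1 library gave 7.10 to 8.48 points. Members had at least 818 counts in every library, and 2 libraries per group limit how well the spread between libraries is known.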
